A study of Mus musculus with 8 samples.

Results

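The genes described here encode voltage-gated potassium channel subunits. They were chosen by name, as every gene on the array whose symbol begins with Kcna, Kcnb, Kcnc, Kcnd, Kcnf, Kcng, Kcnh, Kcnq, Kcns or Kcnv, which takes in the Kcnab genes and leaves out the antisense transcripts. That gave 43 of 34836 gene names, measured by 70 of 55681 probes. No measured value entered the choice. The samples were pooled neurons of the mouse ventromedial (VMH), dorsomedial (DMH) and arcuate (Arc) nuclei of the hypothalamus, with 3 VMH, 3 DMH and 2 Arc samples, each on its own 1-colour array, and the series asks which genes each nucleus enriches. All groups came from female Nkx2-1-CreERT2 x Rosa-ZsGreen mice of 2 months that had received tamoxifen, so the inducible Cre and the reporter were common to the 3 nuclei and no animals without them were compared. Nkx2-1 is a homeobox gene of the ventral forebrain, its Cre decides which cells turn green, and the laser microdissection was aimed at green neurons. All 7 tested astrocyte markers and all 4 endothelial markers were nonetheless well above background on every array. The samples may therefore hold RNA of other cells. The labels do not tie samples to animals, so samples may share an animal, and all p-values below measure the spread between these samples.

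Voltage-gated potassium channels open when the membrane depolarises and let potassium leave the cell, which ends the action potential and sets how readily a neuron fires again. The pore is built of alpha subunits of the Kcna, Kcnb, Kcnc, Kcnd, Kcnh and Kcnq families. Subunits of the Kcnf, Kcng, Kcns and Kcnv families form no working channel alone and modify the Kcnb channels they join, and the Kcnab proteins are cytoplasmic beta subunits that bind Kcna channels. Neurons of the VMH, DMH and Arc take part in the control of feeding, energy use and body temperature, and potassium currents shape their firing.

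The array read each gene through probes of 60 bases, and the probe sets what its value means. The sequences below belong to the probes of the 6 genes whose nuclei differed past the threshold, and of Kcna4, whose probe carries a repeat. They are written as deposited, 5′ to 3′. Most are given as a 30-base stretch of the probe. Positions are those of the files, in mouse build mm9: chr6:126586524-126586583 (minus strand) for Kcna1, chr15:99073172-99073231 (plus) for Kcnh3, chr15:65826897-65826956 (minus) for Kcnq3, chr4:151766899-151766958 (minus) for Kcnab2, chr15:34772007-34772066 (plus) for Kcns2, chr6:126483373-126483432 (minus) for Kcna5 and chr2:107138207-107138266 (plus) for Kcna4. No annotation of that build was used here, so exons and untranslated regions are not assigned.
Kcna1: gcgcatagttttcatctatgcaattttact
Kcnh3: ctcatgttttttatATTAAAaaacATTAAA
Kcnq3: aactggagcggtctccaagtggcttcagca
Kcnab2: ttcactggatactgtccgacaacggatgcc
Kcns2: gggggaatcccaaagtgctttagagactgt
Kcna5: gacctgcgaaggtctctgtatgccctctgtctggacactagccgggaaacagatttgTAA
Kcna4: tttgtgtaTGTGTGTGTGTGtcTGTGTGTG
Capitals in Kcnh3 mark 2 copies of the hexamer ATTAAA, a variant of the polyadenylation signal. Either AATAAA or ATTAAA, searched on the strand as printed, occurs in 12 of the 70 potassium channel probes (17.1%), against 7621 of all 55681 probes (13.7%). Capitals in Kcna5 mark a TAA that follows 19 codons without a stop in the same frame, counted from the probe's first base. Capitals in Kcna4 mark runs of 3 or more TG units. A run of at least 6 TG units is found in 1 of the 70 probes (1.43%), that of Kcna4, and in 115 of all probes (0.207%).

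All levels are log2 of the processed spot signal minus the 75th percentile of its array, so 0 is the brightness of the 75th percentile. A level is comparable between samples for the same probe and not between probes. Across the series, an array read 72.4% to 78.7% of probes well above background, and between 33 and 39 of the 43 potassium channel genes were. Between arrays, r was 0.94 to 0.964 within a nucleus and 0.905 to 0.951 across nuclei. The 75th percentile itself was 1866 to 2036 on VMH arrays, 2107 to 3042 on DMH arrays and 1806 to 1818 on Arc arrays, so the signal strength of whole arrays differs between the nuclei. Marker genes of the nuclei followed the labels: 4 of 4 VMH markers, 5 of 5 DMH markers and 6 of 6 Arc markers were higher in their own nucleus against the mean of the others (limma, adjusted p under 0.05). Of these, Fezf1 (VMH), Grp and Prdm13 (both DMH) entered the test through their own nucleus alone. They had to differ, so their calls are no support for the labels. The summed signal of 5 neuron markers, in units of the 75th percentile, was 195 to 239 in VMH, 151 to 193 in DMH and 234 to 241 in Arc. Snap25 makes up most of that sum. Another of the 5, Syt1, measured 1.56 and 1.53 in Arc, against 2.95 to 3.18 in VMH and 2.98 to 3.01 in DMH, and 1 of the 5 was lower in Arc past the threshold. In pooled tissue, fewer cells of a type and less RNA per cell cannot be told apart.

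Of the 43 genes, 35 were tested, because at least 1 of their probes was well above background throughout some nucleus (27422 genes were tested in all). Differences were judged by limma with Benjamini-Hochberg adjustment over all genes tested and a threshold of 0.05. In VMH against the mean of Arc and DMH, 5 of the 35 were higher, namely Kcna1, Kcnh3, Kcnq3, Kcnab2 and Kcns2, and none was lower (percent of all tested genes called: 0.872 higher and 0.47 lower). That is 14.3% of the tested potassium channel genes. Their median log2 difference was 0.21, against 0.00611 over all genes. When any 1 sample was left out the count was 2 to 4: it was 2 without any 1 VMH sample, 3 without either Arc sample and 4 without any 1 DMH sample. Over all genes the count, 239 with every sample, was 51 to 65 without 1 VMH sample. It was 174 or 185 without 1 Arc sample and 137 to 201 without 1 DMH sample. With the replicate number as a block in the fit, 3 of the potassium channel genes were higher (all genes: 88), and Kcnab2 and Kcns2 did not pass. Kcna1 entered the test through VMH alone and so had to differ, and Kcns2 was above background on 1 of the 2 Arc arrays, so the count is a description. Over the 32 genes well above background on all 8 arrays, 3 were higher in VMH and the median was 0.192.

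The other nuclei gave smaller counts. In DMH against the mean of Arc and VMH, none of the 35 was higher and 1, Kcna1, was lower (all genes: 0.368% higher and 0.474% lower). In Arc against DMH and VMH averaged, Kcna5 was higher, and Kcna1 and Kcnq3 were lower (all genes: 0.193% higher and 0.419% lower). The medians were -0.208 in DMH and -0.198 in Arc, against -0.0445 and 0.0371 over all genes. Pairwise, 3 genes were lower in DMH than in VMH (Kcna1, Kcnh3 and Kcnab2) and none was higher (all genes: 0.788% lower and 0.441% higher). Between DMH and Arc, Kcna5 alone of the 35 was lower in DMH and none was higher (all genes: 0.175% lower and 0.244% higher). Between VMH and Arc, 4 were higher in VMH (Kcna1, Kcnh3, Kcnq3 and Kcns2) and Kcna5 was lower (all genes: 0.66% higher and 0.317% lower). These comparisons share samples, so a gene that is bright in VMH enters several of them. At an unadjusted p under 0.05 the 35 genes gave 13 for VMH, 12 for Arc and 8 for DMH, each against the mean of the other nuclei. All 27422 tested genes gave 3602 for VMH, 4317 for Arc and 4458 for DMH.

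**Figure D1:**
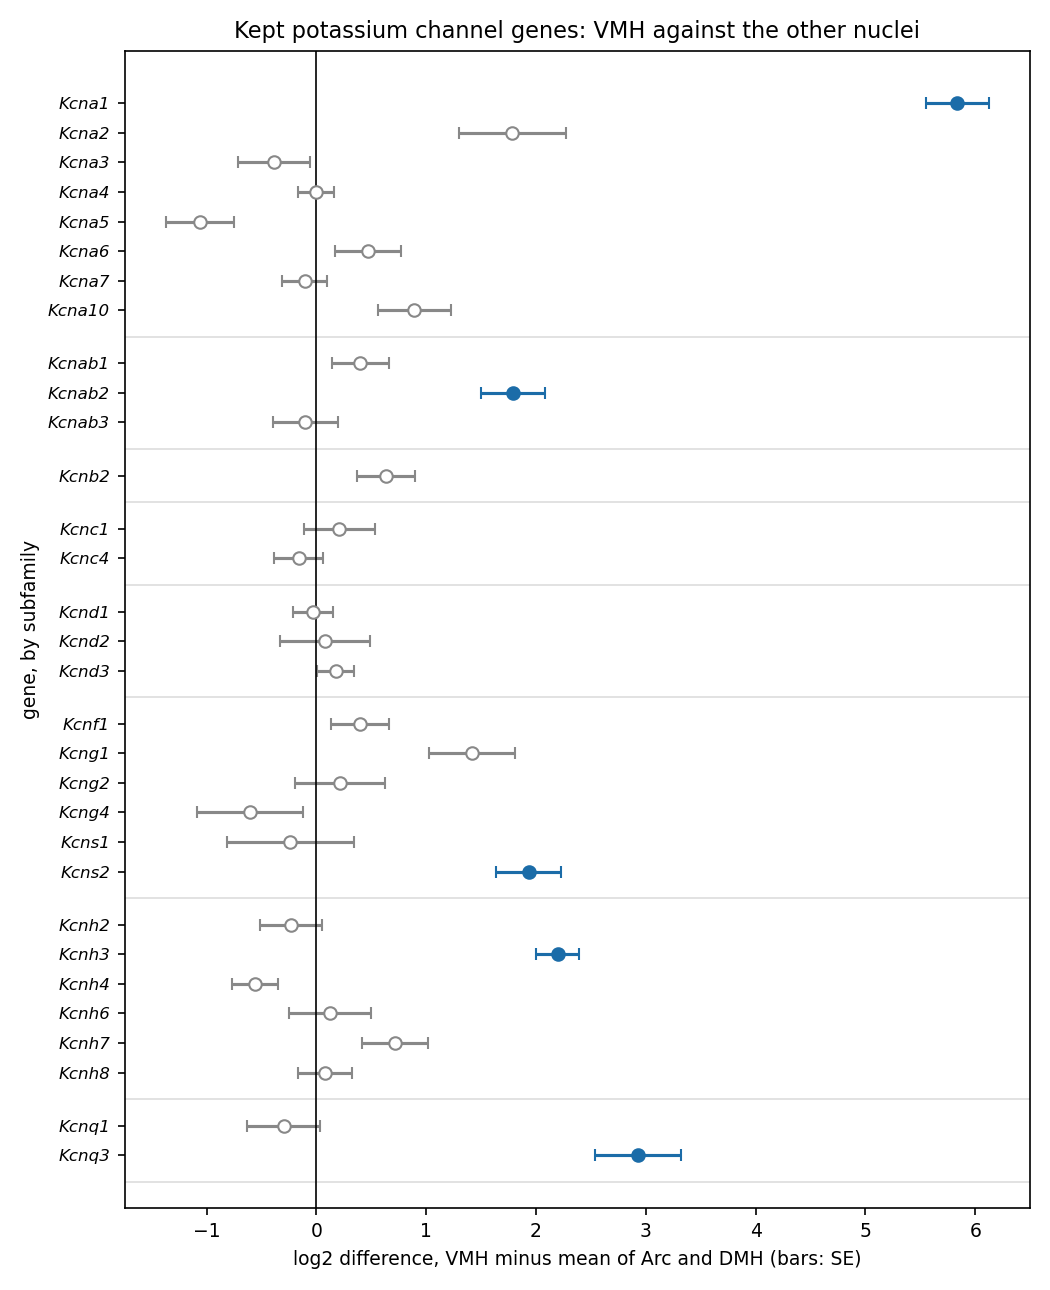
Log2 difference of VMH minus the mean of Arc and DMH for 31 of the 35 tested potassium channel genes, grouped by subfamily from Kcna at the top to Kcnq at the bottom. Points are fitted differences, bars are standard errors, and filled points passed the threshold. The 5 filled points lie in 5 different subfamilies. Kcna1 is drawn at its fitted value, although no DMH or Arc array read it above background.

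Among the Kcna genes, the Shaker-type alpha subunits, Kcna1 separated VMH from the other nuclei. Kcna1 encodes a delayed rectifier subunit of axons and nerve terminals, whose mutations cause episodic ataxia in humans. Its level was -0.70, -1.17 and 0.05 in the VMH samples, against -6.93, -6.57 and -6.46 in DMH and -6.24 and -6.21 in Arc. All VMH samples thus lay far above all others, and on no DMH or Arc array was the probe well above background. Kcna1 was at least 14.3-fold higher in VMH than the mean of Arc and DMH (adjusted p = 0.000329, limma; fitted log2 difference 5.84 ± 0.29 SE). Since the probe passed the filter through VMH alone, this p and those below describe the difference and are no independent support for it. With no filter on dim probes the adjusted p was 0.00108, and with a floor at the weakest signal above background it was 0.00202. For the bound, each dim array was given the weakest signal that it still read well above background (the measured value, where that was stronger). The bounds were at least 19.3-fold against DMH alone (adjusted p = 0.000552) and at least 10.6-fold against Arc alone (adjusted p = 0.00125). DMH and Arc themselves did not differ past the threshold for Kcna1 (adjusted p = 0.584), and both were below background. The call in DMH against the mean of Arc and VMH (adjusted p = 0.00716) and the call in Arc against DMH and VMH averaged (adjusted p = 0.0214) therefore each compare a nucleus below background with a mean that holds VMH. The DMH call was lost without DMH replicate 1 (adjusted p = 0.0535). The Arc call was lost without either Arc sample, DMH replicate 2 or 3 or VMH replicate 1 (adjusted p = 0.0509 to 0.079), with normexp background (adjusted p = 0.0694) and with that floor (adjusted p = 0.0978). It was lost as well with the replicate number as a block.

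Kcna5, an alpha subunit best known for the fast delayed rectifier of the human atrium, ran the other way. Its level was 1.66 and 2.62 in Arc, against -0.54, -0.26 and 0.07 in VMH and 0.01, -0.61 and -0.94 in DMH. Both Arc samples lay above every other sample, and the VMH and DMH samples overlapped. Kcna5 was 5.74-fold higher in Arc than the mean of VMH and DMH (log2 difference 2.52 ± 0.35 SE, adjusted p = 0.0297). It was 6.3-fold lower in DMH than in Arc (adjusted p = 0.0415) and 5.23-fold lower in VMH than in Arc (adjusted p = 0.0399). The first call was lost without Arc replicate 2, without DMH replicate 2 or 3 and without any 1 VMH sample (adjusted p = 0.0581 to 0.113). The call against DMH was lost without any 1 sample except Arc replicate 1, and the call against VMH without any 1 sample except Arc replicate 1 or DMH replicate 1. With no filter on dim probes all 3 calls were lost (adjusted p = 0.0526, 0.0716 and 0.0682), and so were both pairwise calls when only the arrays compared were fitted (adjusted p = 0.122 against DMH and 0.0828 against VMH). With the replicate number as a block all 3 calls were lost as well. A further Kcna5 probe on the same strand gave 0.64 and 0.18 in Arc, against -1.37, -0.98 and -1.17 in VMH and -0.58, -1.82 and -0.92 in DMH. There too both Arc samples were the highest, but the difference of 1.55 ± 0.34 SE did not pass (adjusted p = 0.113 over all probes). The summed signals of microglia and of tanycyte markers were also highest in Arc. The summed signal of 7 microglia markers was 210 to 239 in Arc, 158 to 187 in VMH and 111 to 147 in DMH, and that of 3 tanycyte and ependyma markers was 3.06 to 3.85, 1.95 to 2.56 and 0.881 to 1.29 in the same order. Both sums are led by 1 bright probe, that of Itgam and that of Col23a1, and none of the markers passed in Arc. Other members ran differently: the microglia marker Cx3cr1 measured -0.75 and -0.95 in Arc, against -1.30, -1.93 and -1.54 in VMH and -0.84, -0.04 and -0.64 in DMH. Their part in the Kcna5 result was not tested.

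Kcna5, Kcna1 and Kcna6 are neighbours on chromosome 6 in the RefSeq gene order, and Kcna3, Kcna2 and Kcna10 are neighbours on chromosome 3. Chosen for this position after their values were seen, these genes show how far adjacent genes differed. Kcna6, which lies on the other side of Kcna1 from Kcna5, measured 3.50, 4.22 and 4.20 in VMH, against 3.05, 4.06 and 3.44 in DMH and 3.23 and 3.73 in Arc, and its nuclei overlapped. Its difference in VMH was 0.47 ± 0.30 SE (adjusted p = 0.569). The overlap depends on the probe: a further Kcna6 probe measured 2.79, 2.82 and 2.73 in VMH. On that probe no DMH sample was above 2.39 and no Arc sample above 2.27, and its difference did not pass (adjusted p = 0.198 over all probes). Kcna2, whose product joins Kcna1 in channels of axons, measured 0.79, 1.91 and 0.30 in VMH, against -1.24, -0.20 and 0.16 in DMH and -0.56 and -1.72 in Arc. All 3 VMH samples were above the others, yet the difference of 1.78 ± 0.49 SE did not pass the threshold (adjusted p = 0.165). A further Kcna2 probe measured -0.03, -1.145 and -0.20 in VMH. That probe gave -0.88, -2.04 and -1.905 in DMH and -1.88 and -0.07 in Arc, so VMH overlapped both. Its difference of 0.84 ± 0.495 SE did not pass either (adjusted p = 0.549 over all probes). By its brightest probe, Kcna2 had the highest VMH difference of the 29 genes that passed nowhere. Kcna3 and Kcna10 gave differences in VMH of -0.39 ± 0.33 SE and 0.89 ± 0.33 SE, and neither passed (adjusted p = 0.699 and 0.307).

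**Figure D2:**
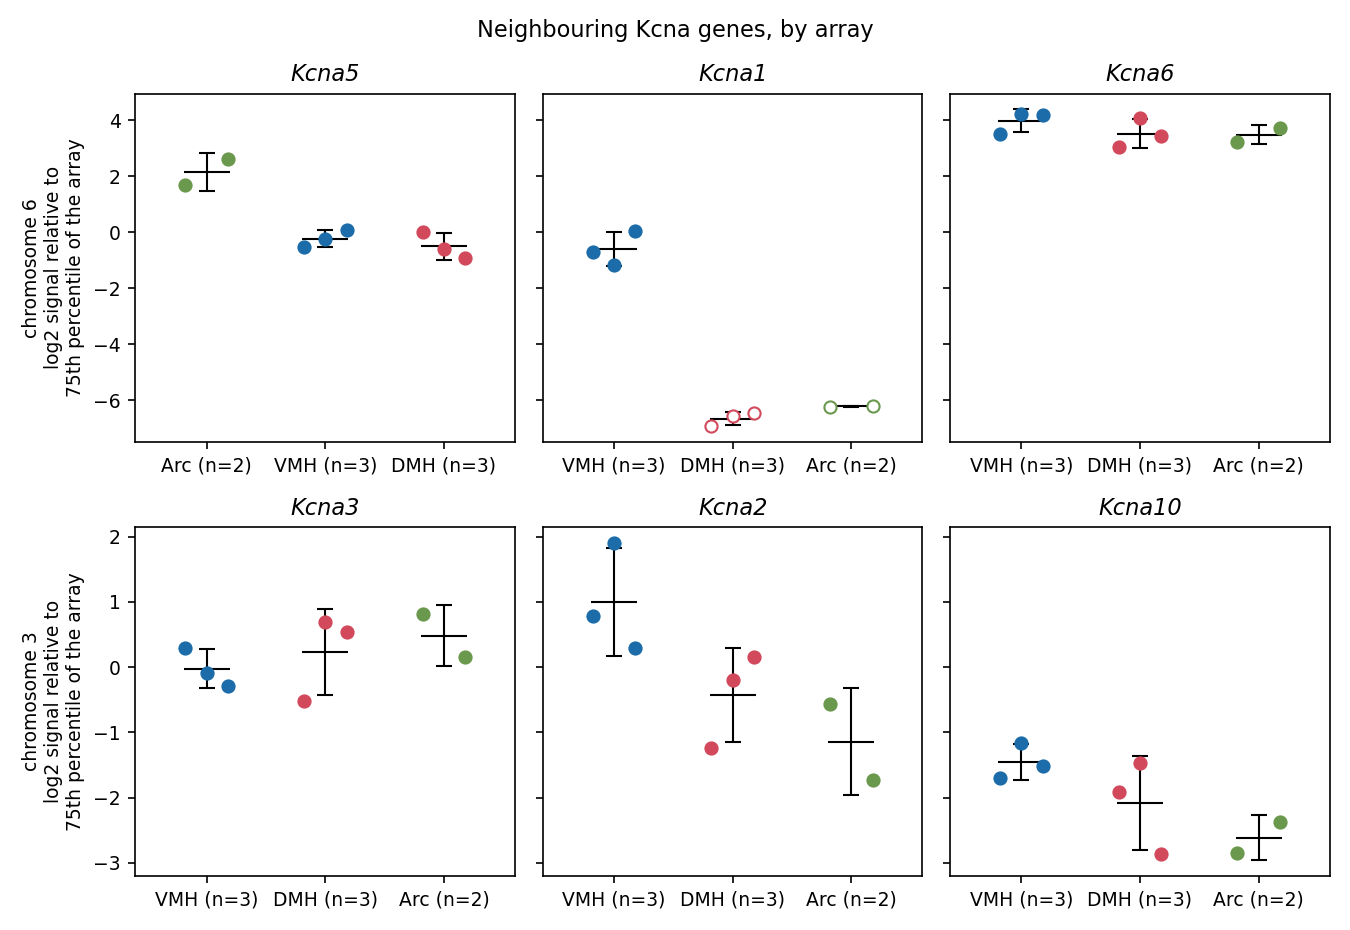
Log2 signal minus that of the array's 75th percentile, for 2 runs of neighbouring Kcna genes, those of chromosome 6 above and of chromosome 3 below. Each point is 1 sample, the long bar is the mean and the whiskers the SD of a nucleus; open points mark a nucleus with at least 1 array that did not read the probe well above background. Kcna1 is bright in VMH only, Kcna5 is highest in Arc, and the nuclei overlap for the Kcna6 probe drawn.

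Kcna4, which encodes a fast-inactivating A-type subunit, measured 5.79, 5.89 and 5.83 in VMH, against 5.58, 5.91 and 5.59 in DMH and 5.88 and 6.09 in Arc, so the nuclei overlapped closely. Its smallest p was that of DMH against Arc, a difference of -0.29 ± 0.21 SE (adjusted p = 0.522). The repeat printed above belongs to this probe, and its part in the level was not tested. Kcna7 showed no called difference either, at 3.30 to 4.28 over the 8 samples.

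Kcnh3, an ELK-type subunit found chiefly in forebrain neurons, differed with the smallest spread of the called genes. It measured 1.96, 1.80 and 2.22 in VMH, against -0.44, -0.19 and 0.12 in DMH and -0.17 and -0.30 in Arc. Every VMH sample was above every other sample, while DMH and Arc overlapped. Kcnh3 was 4.59-fold higher in VMH than the mean of Arc and DMH (log2 difference 2.20 ± 0.20 SE, adjusted p = 0.00403). It was 4.48-fold lower in DMH than in VMH (adjusted p = 0.00564) and 4.7-fold higher in VMH than in Arc (adjusted p = 0.011). DMH and Arc differed by 0.07 ± 0.24 SE (adjusted p = 0.916). No alternative setting and no left-out sample ended these Kcnh3 calls. The other 5 tested Kcnh genes passed nowhere. Kcnh7, an ERG-type subunit, had the next highest VMH difference in the subfamily, 0.72 ± 0.30 SE (adjusted p = 0.369). Kcnh4 and Kcnh8, the other ELK-type subunits, gave -0.56 ± 0.21 SE and 0.08 ± 0.25 SE (adjusted p = 0.314 and 0.94).

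Kcnq3 encodes a subunit of the M current, a slow potassium current that muscarinic receptors suppress. It measured 0.86, 0.56 and 1.31 in VMH, against -1.81, -1.05 and -0.18 in DMH and -2.62 and -3.41 in Arc. The 3 nuclei did not overlap, with VMH highest and Arc lowest. Kcnq3 was 7.6-fold higher in VMH than the mean of Arc and DMH (log2 difference 2.93 ± 0.39 SE, adjusted p = 0.0166) and 15.2-fold higher in VMH than in Arc (3.93 ± 0.49 SE, adjusted p = 0.015). It was 7.8-fold lower in Arc than the mean of VMH and DMH (adjusted p = 0.0353). The steps from DMH to its neighbours did not pass: DMH minus VMH was -1.93 ± 0.44 SE (adjusted p = 0.103) and DMH minus Arc was 2.00 ± 0.49 SE (adjusted p = 0.127). The VMH call was lost without any 1 VMH sample (adjusted p = 0.0559 to 0.0833). The call of VMH against Arc was lost without VMH replicate 1 or 3 or Arc replicate 2 (adjusted p = 0.0548 to 0.0679). The Arc call was lost without any 1 VMH or Arc sample or DMH replicate 2 (adjusted p = 0.0611 to 0.146), with no filter on dim probes (adjusted p = 0.0648) and with the row of the slide as a block (adjusted p = 0.0572). With the replicate number as a block, the Arc call and the call of VMH against Arc were both lost.

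Kcnab2 encodes a beta subunit related to aldo-keto reductases that promotes the transport of Kcna channels to the axon. It measured 2.76, 3.01 and 2.46 in VMH, against 0.07, 0.98 and 1.23 in DMH and 1.28 and 1.02 in Arc. All VMH samples were above the rest, and DMH and Arc overlapped. Kcnab2 was 3.46-fold higher in VMH than the mean of Arc and DMH (log2 difference 1.79 ± 0.29 SE, adjusted p = 0.0331) and 3.95-fold lower in DMH than in VMH (adjusted p = 0.0369), while VMH against Arc did not pass (1.60 ± 0.36 SE, adjusted p = 0.109). The first call was lost without any 1 VMH or Arc sample or DMH replicate 2 (adjusted p = 0.0644 to 0.138), and the second without any 1 of the 8 samples (adjusted p = 0.052 to 0.133). Both were lost with no filter on dim probes (adjusted p = 0.0588 and 0.0626) and with the row of the slide as a block (adjusted p = 0.0528 and 0.0636), and the second also when only DMH and VMH arrays were fitted (adjusted p = 0.0536). With the replicate number as a block neither Kcnab2 call passed. Kcnab1, which also speeds the inactivation of Kcna channels, measured 2.91, 3.37 and 3.94 in VMH, against 3.14, 2.95 and 2.95 in DMH and 2.77 and 3.22 in Arc. Its nuclei overlapped, and its VMH difference was 0.40 ± 0.26 SE (adjusted p = 0.575). Kcnab3 differed by -0.10 ± 0.30 SE (adjusted p = 0.937).

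Among the electrically silent subunits, 6 of 10 genes were tested and Kcns2 was the one that passed. It measured -1.33, -1.34 and -0.52 in VMH, against -2.59, -1.72 and -2.63 in DMH and -3.67 and -3.69 in Arc. The nuclei did not overlap, and 1 of the 2 Arc arrays read the probe well above background. Kcns2 was at least 3.82-fold higher in VMH than the mean of Arc and DMH (adjusted p = 0.0273, fitted log2 difference 1.93 ± 0.30 SE) and at least 6.13-fold higher in VMH than in Arc (adjusted p = 0.0231). For these 2 bounds the dim Arc array kept its measured value, which was stronger than its weakest signal well above background. They therefore equal the fitted differences and leave out their SE. DMH minus VMH was -1.25 ± 0.33 SE and did not pass (adjusted p = 0.15). The first call was lost without any 1 VMH or Arc sample or DMH replicate 1 or 3 (adjusted p = 0.0594 to 0.0939), and the second without any 1 VMH or Arc sample (adjusted p = 0.0559 to 0.088) or when only VMH and Arc arrays were fitted (adjusted p = 0.0607). Both calls were also lost with the replicate number as a block. Kcng1 had the next highest VMH difference among them, 1.42 ± 0.39 SE (adjusted p = 0.167). Kcng2 measured -1.46, -0.64 and -0.32 in VMH, against -1.85, -0.46 and -0.44 in DMH and -0.88 and -1.37 in Arc, and its nuclei overlapped.

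**Figure D3:**
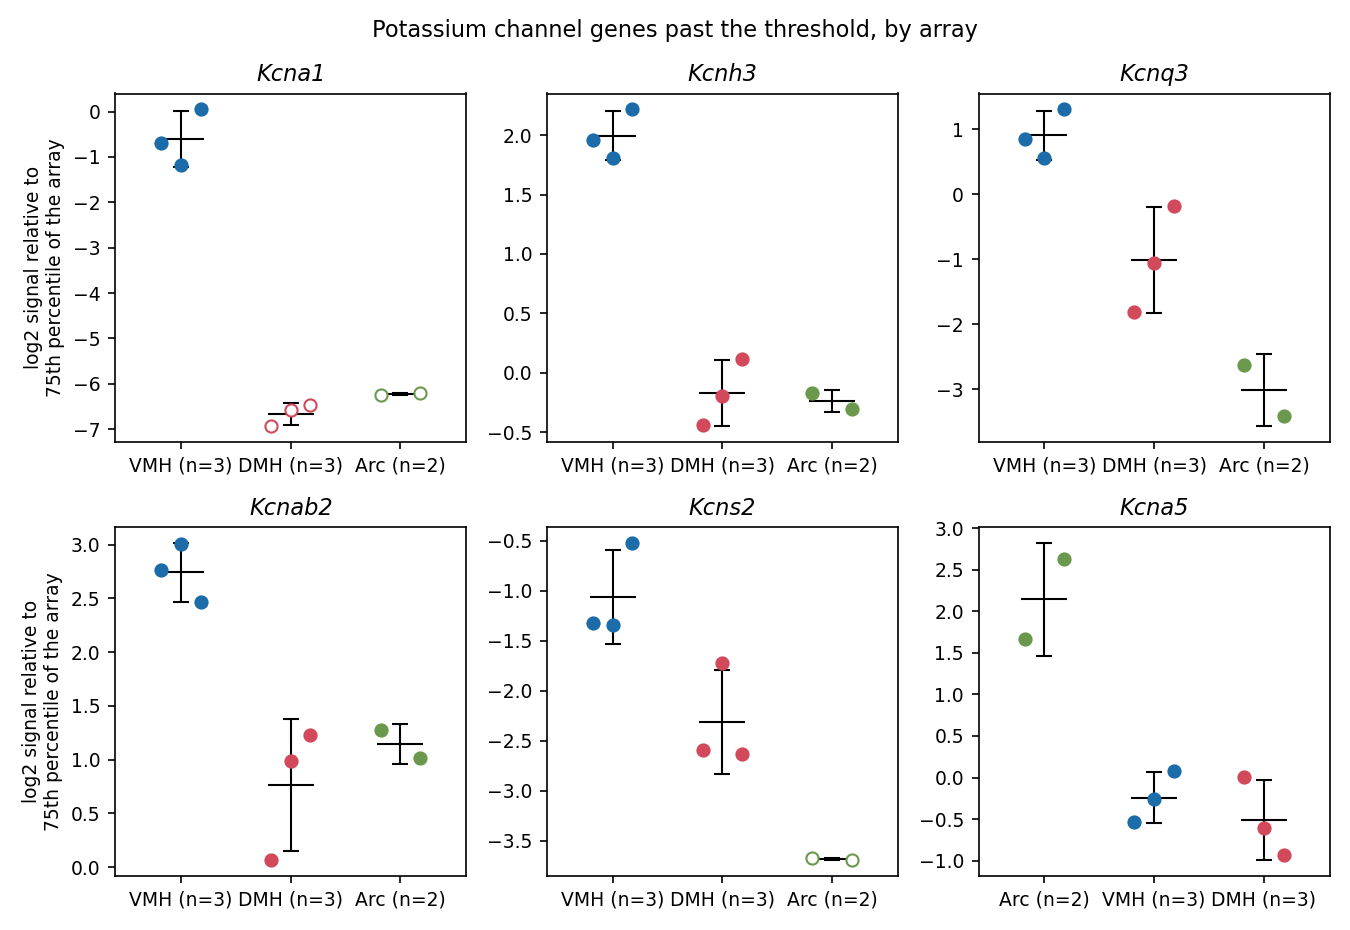
Log2 signal minus that of the array's 75th percentile, for the 6 potassium channel genes past the threshold in any comparison. Each point is 1 sample, the long bar is the mean and the whiskers the SD of a nucleus; open points mark a nucleus with at least 1 array that did not read the probe well above background. The 3 VMH samples are the highest for Kcna1, Kcnh3, Kcnq3, Kcnab2 and Kcns2, and the 2 Arc samples for Kcna5.

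The part of other cell types in these results was not tested, and the levels of their markers were as follows. The summed signal of 9 oligodendrocyte markers was 19.1 to 29.4 in VMH, 15 to 21.1 in DMH and 9.8 to 17.9 in Arc. That of the 7 tested astrocyte markers was 9.75 to 14 in VMH, 14.8 to 16.3 in DMH and 8.98 to 11.3 in Arc. In DMH against the mean of Arc and VMH, 1 astrocyte marker was higher past the threshold. There, 1 of the tanycyte and ependyma markers was lower. No oligodendrocyte, microglia or endothelial marker passed in any comparison. That of 4 endothelial markers was 1.27 to 1.44 in VMH, 1.06 to 1.85 in DMH and 1.5 to 1.91 in Arc. Within the rows of the slide, of which there were 2 with samples of every nucleus in each, the VMH difference was 6.53 and 5.42 for Kcna1, 2.53 and 1.91 for Kcnh3, 3.73 and 2.11 for Kcnq3, 1.69 and 1.63 for Kcnab2, and 2.40 and 1.82 for Kcns2. The Kcna1 values are set against arrays below background, and for all 5 genes every VMH sample lay above the rest, which fixes the sign within a row. For Kcna5 the Arc difference was 2.74 and 2.33 within the rows. Each row holds 1 Arc sample, and both lay above every other sample, which fixes the sign there too.

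Kcnb2, a delayed rectifier subunit of neurons, measured -0.74, -1.05 and -0.48 in VMH, against -1.57, -1.48 and -1.06 in DMH and -0.97 and -1.86 in Arc. The VMH and Arc samples overlapped, and the VMH difference of 0.64 ± 0.26 SE did not pass (adjusted p = 0.361).

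Kcnd3, a Shal-type subunit of the A current that opens below the firing threshold, was lowest in DMH. It measured 2.74, 2.81 and 2.83 in DMH, against 3.29, 3.50 and 3.70 in VMH and 3.996 and 3.72 in Arc. The 3 DMH samples lay close together and below every other sample. The DMH difference of -0.88 ± 0.17 SE missed the threshold in the setting used here (adjusted p = 0.0777) and passed it in 3 of 18 other settings. Its further probe measured -0.26, 0.20 and 0.36 in DMH, against 1.12, 1.79 and 0.99 in VMH and 1.81 and 1.34 in Arc, again with DMH lowest, and gave a DMH difference of -1.34 ± 0.27 SE (adjusted p = 0.0856 over all probes). Kcnd1 and Kcnd2 gave DMH differences of -0.49 ± 0.19 SE and 0.23 ± 0.41 SE (adjusted p = 0.257 and 0.827).

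A gene's value also depended on the probe. Of the 35 tested genes, 16 had more than 1 kept probe, and in 12 of them all probes gave a VMH difference of the same sign. Kcna7, Kcnc1 and Kcnd1 were among those with differences on both sides of 0. None of the 5 genes higher in VMH had a further probe on the array, so each of these results rests on 1 probe. Kcna6 had 2 probes at 0.47 ± 0.30 SE and 0.60 ± 0.17 SE in VMH and a further one that neither Arc array read above background, and none of the 3 passed. Kcnq1, an alpha subunit of cardiac and epithelial channels, had 2 probes that share 51 of their 60 bases, yet 1 was well above background on 2 arrays and the other on 7.

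**Figure D4:**
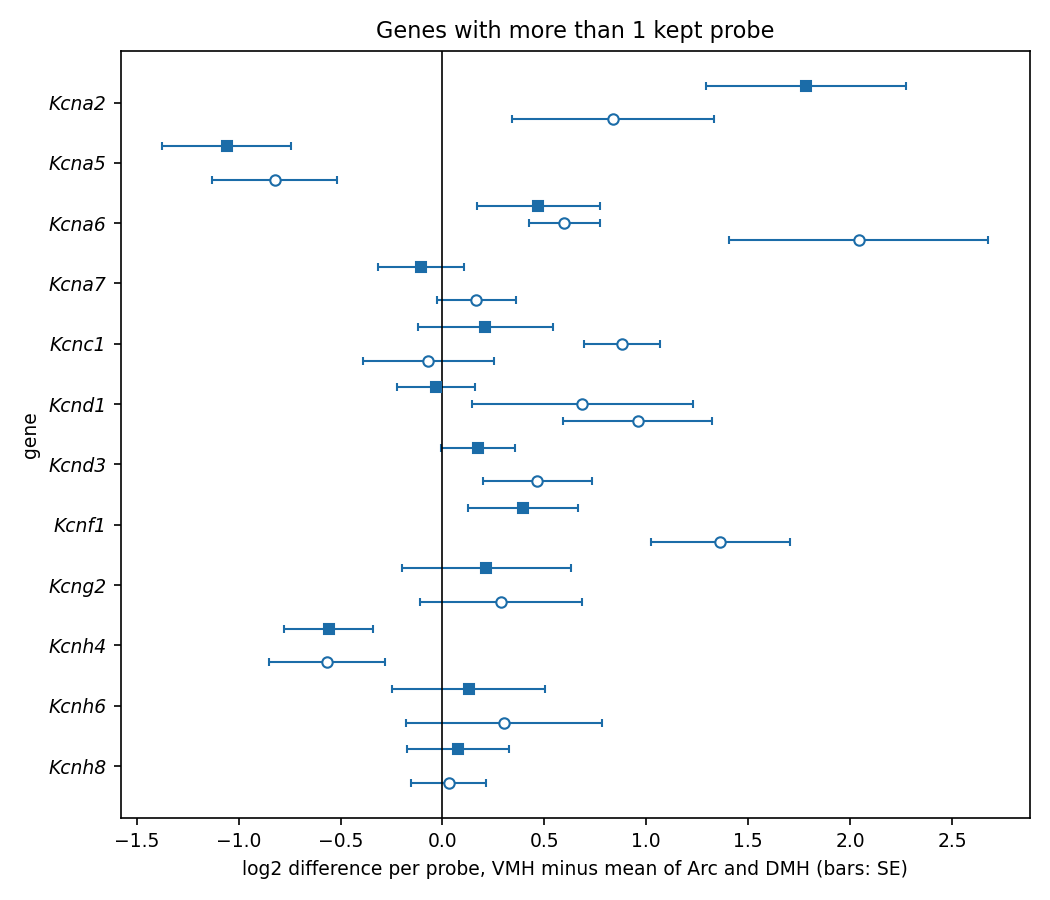
Log2 difference of VMH minus the mean of Arc and DMH for every kept probe of 12 of the 16 genes with more than 1. Squares are the brightest probe, which stands for the gene, circles are further probes, and bars are standard errors. The probes of Kcna7, Kcnc1 and Kcnd1 fall on both sides of 0, and the Kcna6 probe farthest right is set against Arc arrays below background.

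Of the 8 genes that were not tested, Kcnh1, Kcns3 and Kcnv1 were well above background on no array. The best probe of Kcnc2, a Shaw-type subunit, reached that level on 4 arrays, as did that of Kcng3, a silent subunit. For Kcnh5, an EAG-type subunit, it was 3 arrays, for Kcnq5, a further M-current subunit with 3 probes, 2 arrays at most, and for Kcnv2, a silent subunit of photoreceptors, 1 array. Where no array read a probe above background, that does not show that the transcript was absent.

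Proteins that bind these channels were described from a list of 25 genes, of which 23 were tested. They include the Kcnip and Dpp subunits of Kcnd channels, the Kcne subunits and the anchoring and secreted partners of Kcna channels. In VMH against the mean of Arc and DMH none of the 23 passed, in either direction, and their median difference was 0.261 (all genes: 0.872% higher, 0.47% lower, median 0.00611). In DMH 1 was higher (all genes: 0.368%) and in Arc 1 was lower (all genes: 0.419%), in both cases Kcnip4, a calcium-binding protein that attaches to Kcnd channels. Kcnip4 measured 0.56, 0.49 and 0.18 in DMH, against 0.03, -0.19 and -0.27 in VMH and -1.74 and -1.95 in Arc. The nuclei did not overlap, with DMH highest and Arc lowest. Kcnip4 was 3.95-fold lower in Arc than the mean of VMH and DMH (log2 difference -1.98 ± 0.20 SE, adjusted p = 0.00842), and that call was lost only when a gene's probes were averaged (adjusted p = 0.055). It was 4.78-fold higher in DMH than in Arc (adjusted p = 0.0106), a call lost when only those arrays were fitted (adjusted p = 0.0587). It was 3.26-fold higher in VMH than in Arc (adjusted p = 0.0165) and 2.65-fold higher in DMH than the mean of Arc and VMH (adjusted p = 0.0208). The last 2 calls were lost without any 1 of several samples, among them Arc replicate 2 and VMH replicates 2 and 3 for both (adjusted p up to 0.0736 and 0.0923), and when a gene's probes were averaged (adjusted p = 0.113 and 0.0768). The first of them was also lost when only VMH and Arc arrays were fitted (adjusted p = 0.0607), and the other with the row of the slide as a block (adjusted p = 0.0564). Neither passed with the replicate number as a block. The Lgi genes, the secreted partners on the list, were chosen after their values were seen. Their VMH differences were 1.84 for Lgi1, 0.465 for Lgi2, 1.94 for Lgi3 and -0.349 for Lgi4, and none passed. For Lgi3, DMH replicate 1 did not read the probe well above background, so that difference is a bound of at least 3.79-fold.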

How the data were processed

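RNA of 8 samples was labelled with Cy5, per the labels' protocols. Per the file headers, the deposited values are red-channel spot intensities that Agilent Feature Extraction 11.5.1.1 background-subtracted and detrended within each array. Flags for spots well above background and for outliers are those of the files. All arrays lie on 1 slide and 1 scan.

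From these, log2 intensity minus the 75th percentile of the 59305 non-control spots of its array was taken. Outlier spots were dropped and spots of a probe averaged. A probe was kept where all arrays of some nucleus read it well above background (41480 probes), and the brightest kept probe stood for a gene (27422 genes tested). With limma 3.58.1 in R 4.3.3, lmFit and eBayes estimated a mean for each nucleus over the 8 arrays, with 6 contrasts and Benjamini-Hochberg adjustment within each. The fit was tested on simulated data.

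Named genes are those past the threshold, the brightest and the smallest-p gene of each subfamily, Kcna1, Kcnq3 and Kcnh3, and up to 4 called genes of each further list; others named were chosen after their values were seen. Some genes that this rule names, or that are in the counts, are not reported here. The genes, lists and tests were chosen with earlier results of these data known. Gene order comes from RefSeq (assembly GRCm38.p6), used for names only, where 43 of 43 symbols matched. The deposited series-wide value table was not used. Alternatives are given at the end.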

Additional observations from a re-analysis of the deposited data

How the results depend on the processing

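The 12 counts of potassium channel genes called (6 comparisons, higher and lower) stayed within 1.5 times under quantile normalization, another percentile and a floor. With normexp, 4 genes were lower in DMH against the mean (all genes: 193, against 130 in the fit used here). Without a filter on dim probes, none was higher and 1 lower in Arc, and none was lower in DMH or in VMH than in Arc. All genes then gave 32 higher and 57 lower in Arc, against 53 and 115 in the fit used here. Lower than in Arc were 16 in DMH and 53 in VMH, against 48 and 87. With only probes well above background on all arrays, which removes Kcna1 and Kcns2, none was lower in DMH, 3 were higher in VMH, 1 was lower in Arc and 2 were higher in VMH than in Arc. For all genes, in the same order, these counts were 118, 224, 78 and 165, against 130, 239, 115 and 181 in the fit used here. Averaging a gene's probes gave 2 lower in DMH (all genes: 149, against 130). Trended and robust eBayes gave 3 lower in DMH, 4 lower in Arc and 2 lower in DMH than in Arc. For all genes it gave 184, 186 and 102, against 130, 115 and 48. The slide row as a block gave 1 lower in Arc (all genes: 56, against 115). With only the arrays compared, none was lower in DMH than in Arc or in VMH than in Arc (all genes: 22 and 22, against 48 and 87). Samples with the same replicate number had residual correlations of 0.0734 to 0.188, against -0.128 to 0.0173 between different numbers. Every pair with the same number was thus above every other pair, so the numbers may mark paired samples. The pairs are not independent, because residuals from the mean of 2 Arc samples mirror each other. With DMH replicate 1, for example, r was 0.0734 for Arc replicate 1 and -0.0735 for Arc replicate 2. The fit used here leaves such pairing out, because not all of these correlations were above 0.1 and the labels do not explain the numbers. That level is no test of pairing. With the replicate block, 3 were higher in VMH, and 0 were higher and 0 lower in Arc. It gave 0 lower in DMH than in Arc, and 2 higher and 0 lower in VMH than in Arc. For all genes, in the same order, the block gave 88, 15, 25, 12, 46 and 28, against 239, 53, 115, 48, 181 and 87. The calls of Kcna5, Kcnab2 and Kcns2 did not pass under that block, nor did those of Kcnq3 in Arc and in VMH against Arc, of Kcna1 in Arc, of Kcnip4 in DMH and in VMH against Arc, or of Kcnmb4, Kcnk4 and Kcnk13 in VMH. Leaving out each sample in turn gave 2 to 4 higher in VMH, 0 to 1 lower in DMH, 0 to 1 higher and 0 to 2 lower in Arc, 2 lower in DMH than in VMH, 0 to 1 lower in DMH than in Arc, and 2 to 5 higher and 0 to 1 lower in VMH than in Arc; the other counts stayed at 0. All genes, with each sample left out in turn, gave 51 to 201 higher in VMH and 9 to 72 lower in DMH, against 239 and 130. In Arc they gave 22 to 38 higher and 45 to 120 lower, against 53 and 115. The cause of these shifts was not tested, apart from the loss of samples or genes that an alternative itself brings. Kcnh3 in VMH passed in 18 of 18 settings (difference 2.05 to 2.29, limma adjusted p = 0.000947 to 0.0259). Kcna1 in VMH passed in 17 of 17 (3.02 to 6.12, limma adjusted p = 0.000246 to 0.0042). Except with no filter, the Kcna1 probe entered the test through VMH alone, so that tally is no independent support for its difference. The setting limited to probes well above background on all arrays removes Kcna1 and is not among the 17. The only named difference to change sign was Kcna4 in DMH minus Arc, 0.0482 under quantile normalization (adjusted p = 0.928), which was called in no setting. With 2 or 3 arrays per nucleus, modest differences are poorly resolved.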

Other observations

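Other potassium channels, the inward rectifier, tandem-pore and calcium- or sodium-activated families, were read from a list of 42 genes, of which 32 were tested. In VMH against the mean of Arc and DMH, 3 were higher and none was lower, and the median difference was 0.0786 (all genes: 0.872% higher, 0.47% lower, median 0.00611). Kcnmb4, the beta subunit of calcium-activated BK channels in neurons, measured 0.59, 0.51 and 0.99 in VMH, against -1.94, -1.31 and -2.29 in DMH and -1.92 and -0.98 in Arc. All VMH samples were above the rest, and Kcnmb4 was 5.08-fold higher there (limma adjusted p = 0.0151), a call lost without any 1 VMH sample (adjusted p = 0.0593 to 0.0802). Kcnk4, a mechanosensitive leak channel, measured 1.33, 1.62 and 2.25 in VMH, against -0.43, -0.01 and -0.13 in DMH and 0.36 and 0.26 in Arc. Its nuclei did not overlap, and it was 3.18-fold higher in VMH (adjusted p = 0.0217), lost without DMH replicate 3, VMH replicate 2 or 3 or either Arc sample (adjusted p = 0.0559 to 0.0803). Kcnk13, a tandem-pore channel also known from mouse microglia, measured -1.34, -0.35 and -0.51 in VMH, against -1.84, -1.79 and -1.96 in DMH and -2.59 and -2.69 in Arc. It was 2.87-fold higher in VMH (adjusted p = 0.033), a call lost without any 1 sample except VMH replicate 1 (adjusted p = 0.0702 to 0.137), with no filter on dim probes (adjusted p = 0.0567) and with the row of the slide as a block (adjusted p = 0.0709).

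The antisense transcripts left out of the gene set passed in no comparison. Kcnd3os had a DMH difference of -0.68 (adjusted p = 0.279), the same sign as Kcnd3. The brighter probe of Kcnq1ot1 measured 2.00, 2.14 and 1.93 in VMH, against 1.65, 1.53 and 1.64 in DMH and 1.97 and 1.80 in Arc, with a DMH difference of -0.35 (adjusted p = 0.362).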
